A study of Mus musculus with 29 samples.

Results

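The genes that bring glucose into retinal cells and break it down to lactate were followed in mouse retinas of 5 strains at a postnatal stage (P30.5, about a month after birth) and an embryonic one (E18.5, shortly before it). The group holds 10 genes, chosen by name, out of 18193 genes with a probe set of their own. It covers the glucose transporters Slc2a1 and Slc2a3, the hexokinases Hk1 and Hk2, the phosphofructokinases Pfkl, Pfkm and Pfkp, the lactate dehydrogenases Ldha and Ldhb, and the lactate transporter Slc16a1. The array measures them with 24 of its 45037 probe sets, all of which entered the tests, and no member was lost to a filter on dim signals.

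Total RNA from whole retinas of AKR/J, CAST/EiJ, rd7, NOD.NON-H2-nb1 and C57BL6/J mice was hybridized to Affymetrix arrays, with 29 arrays in 10 groups. Every group had 3 arrays, except AKR/J at E18.5 with 2. Each array carried equal amounts of RNA from 10 retinas of 1 strain and age, so the replicates are pools, and a test measures the spread between these pools. The strains other than rd7 are inbred or congenic backgrounds. No treatment is named, and the rd7 mice, labelled RD7, carry the mutation of the retinal degeneration 7 model. The labels name neither the sex of the mice nor the strain background of rd7. As checks of the tissue and the age, rod photoreceptor markers had a mean log2 signal of 13.7 to 14.6 in the P30.5 arrays and 5.37 to 7.99 in the E18.5 arrays, and progenitor markers one of 5.09 to 7.17 at P30.5 and 12.3 to 12.9 at E18.5.

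Glucose enters cells through transporters of the Slc2a family, and a hexokinase traps it by adding a phosphate. Phosphofructokinase commits it to glycolysis, and lactate dehydrogenase turns the pyruvate at the end into lactate, which leaves or enters cells through monocarboxylate transporters such as Slc16a1. The adult retina is known for making much lactate even when oxygen is present (aerobic glycolysis), and its photoreceptors, which renew their outer segments continuously, are held to be the main site of this. Hk2 is a hexokinase of photoreceptors, while Hk1 is the common form of nervous tissue.

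The promoters of these genes are shown because hypoxia-inducible factor, a known regulator of glycolysis genes, binds a response element with the core ACGTG. The window of 250 bases before the start was searched on both strands, where a CACGTG palindrome counts once on each strand. Of the 9 members with an entry in the RefSeq promoter table (GRCm38.p6), 5 held the core (Slc2a1, Hk2, Pfkm, Ldha and Slc16a1), in 6 of 14 windows, against 16.6% of all 32851 promoters. TAATCC, the core bound by homeodomain factors of the Crx type, which act in photoreceptors, was found in 3 of the 14 windows (1 each of Pfkm, Pfkp and Ldha), against 6.25% of all promoters. The following are the 80 bases next to a transcript start of the 3 members that held ACGTG there, 5′ to 3′ on the strand of the gene, with the matches (ACGTG, or CACGT for the other strand) in capitals.

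Slc2a1, chr4:119108665-119108744, plus strand: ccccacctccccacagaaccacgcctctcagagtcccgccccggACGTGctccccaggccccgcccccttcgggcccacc

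Hk2, chr6:82774455-82774534, minus strand: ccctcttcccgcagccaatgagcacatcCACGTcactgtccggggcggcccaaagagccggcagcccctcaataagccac

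Ldha, chr7:46845724-46845803, plus strand: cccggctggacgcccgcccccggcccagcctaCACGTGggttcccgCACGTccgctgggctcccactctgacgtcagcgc

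Slc2a1 had 1 match in its whole window, 36 bases before the start, and Hk2 had 2, at 226 and 52 bases. Ldha had 5 matches in the whole window of 1 of its 2 starts in the table. They came from a palindrome at 145 and 144 bases, another at 48 and 47 bases, and a single core at 34 bases. The stretch shown for Ldha belongs to the same start and holds 3 of these matches, at 48, 47 and 34 bases. A match is a run of letters and not a measured binding site. The signals of these 3 genes are given below.

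The values are log2 MAS5 signals. MAS5 is the array maker's summary of the probes of a probe set, and the deposited signals are linear intensities with the same trimmed mean on each array. Each gene is represented by its brightest probe set on average, unless another one is named. Probe sets bind with different strength, so signals were compared between arrays and never between genes. One limma model of all arrays gave both kinds of comparison, a strain against C57BL6/J within an age and P30.5 against E18.5 within a strain. A gene passed at an adjusted p under 0.05 (Benjamini-Hochberg over all 45037 probe sets). The comparisons with C57BL6/J at 1 age share its 3 arrays, so the strains are not independent of each other there. In whole retina, fewer cells of a type and less RNA per cell cannot be told apart.

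Some E18.5 arrays stood apart. The mean log2 signal of 10 skeletal muscle markers was 11.1 to 12.0 in 6 arrays, which were both AKR/J arrays, CAST/EiJ replicate 1, NOD.NON-H2-nb1 replicate 1 and rd7 replicates 2 and 3. The C57BL6/J arrays had 5.50 to 5.62. The summed signal of all 10 markers was 48980 to 54530 in the AKR/J arrays, 2478 to 30440 in those of CAST/EiJ, 1660 to 52980 in rd7 and 837.2 to 30370 in NOD.NON-H2-nb1, against 724.5 to 872.1 in C57BL6/J. Pigment epithelium markers were also higher in the other strains at E18.5 (mean log2 8.24 to 10.1) than in C57BL6/J (7.38 to 8.10). NOD.NON-H2-nb1 replicate 3 at E18.5 stood apart in some of the members and not in others. Its log2 signal was 12.58 for Slc2a3 and 11.67 for Hk2, against highest values of 11.10 and 10.62 in the other E18.5 arrays. By the brightest probe sets it lay within the range of replicates 1 and 2 of its group for Hk1, Ldha and Slc2a1. It lay above both replicates for Pfkl, Pfkm, Pfkp and Slc16a1. By dimmer probe sets it was also above both for Slc2a1 (1426600_at, 13.13 against 12.26 and 12.43) and Hk1 (1420901_a_at, 8.79 against 8.33 and 8.003). Marker sums of pigment epithelium and choroid (44590 against 13010 and 11820) and of red cells (2382 against 493.7 and 307.8) were higher in it than in replicates 1 and 2. Those of muscle (3758 against 30370 and 837.2), lens (1550 against 1221 and 22680) and endothelium (4642 against 4737 and 3935) lay between the values of these replicates. The part of such RNA in the result was not tested. The standard deviation of NOD.NON-H2-nb1 at E18.5 was the highest of the 10 groups for 8 of the 10 members, and for 10.4% of all genes. Calls that were lost without these arrays are given with both values.

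The clearest pattern was a change with age that the strains shared. Hk1, Hk2, Pfkm, Pfkp and Slc16a1 rose in all 5 strains, and for each of them the lowest of the 15 P30.5 arrays lay above the highest of the 14 E18.5 arrays. Of all 18193 genes, 8.85% rose in all 5 strains, and 7.64% had no such overlap with P30.5 higher. Slc2a3 rose in 4 strains, Slc2a1 fell in 3, Ldhb rose in AKR/J, and Pfkl and Ldha passed in none. The members that passed numbered 7 of 10 in AKR/J (23.1% of all probe sets passed), 7 in CAST/EiJ (25.7%), 7 in rd7 (26.6%), 6 in NOD.NON-H2-nb1 (25%) and 6 in C57BL6/J (26.3%). The median log2 change of the members was 1.28, 1.35, 1.25, 0.62 and 0.93 in the same order of strains, and over all genes it was 0.02, 0.02, 0.05, 0.01 and 0.07. Without the muscle-rich arrays, a setting chosen after seeing the data that cannot be run for AKR/J, the counts were 7 in CAST/EiJ, 5 in rd7, 6 in NOD.NON-H2-nb1 and 5 in C57BL6/J. The 6 in NOD.NON-H2-nb1 were not the same genes as before, since Pfkp no longer passed and a member that had not passed did. Without replicate 3 of NOD.NON-H2-nb1 at E18.5, 7 members passed in that strain.

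**Figure D1:**
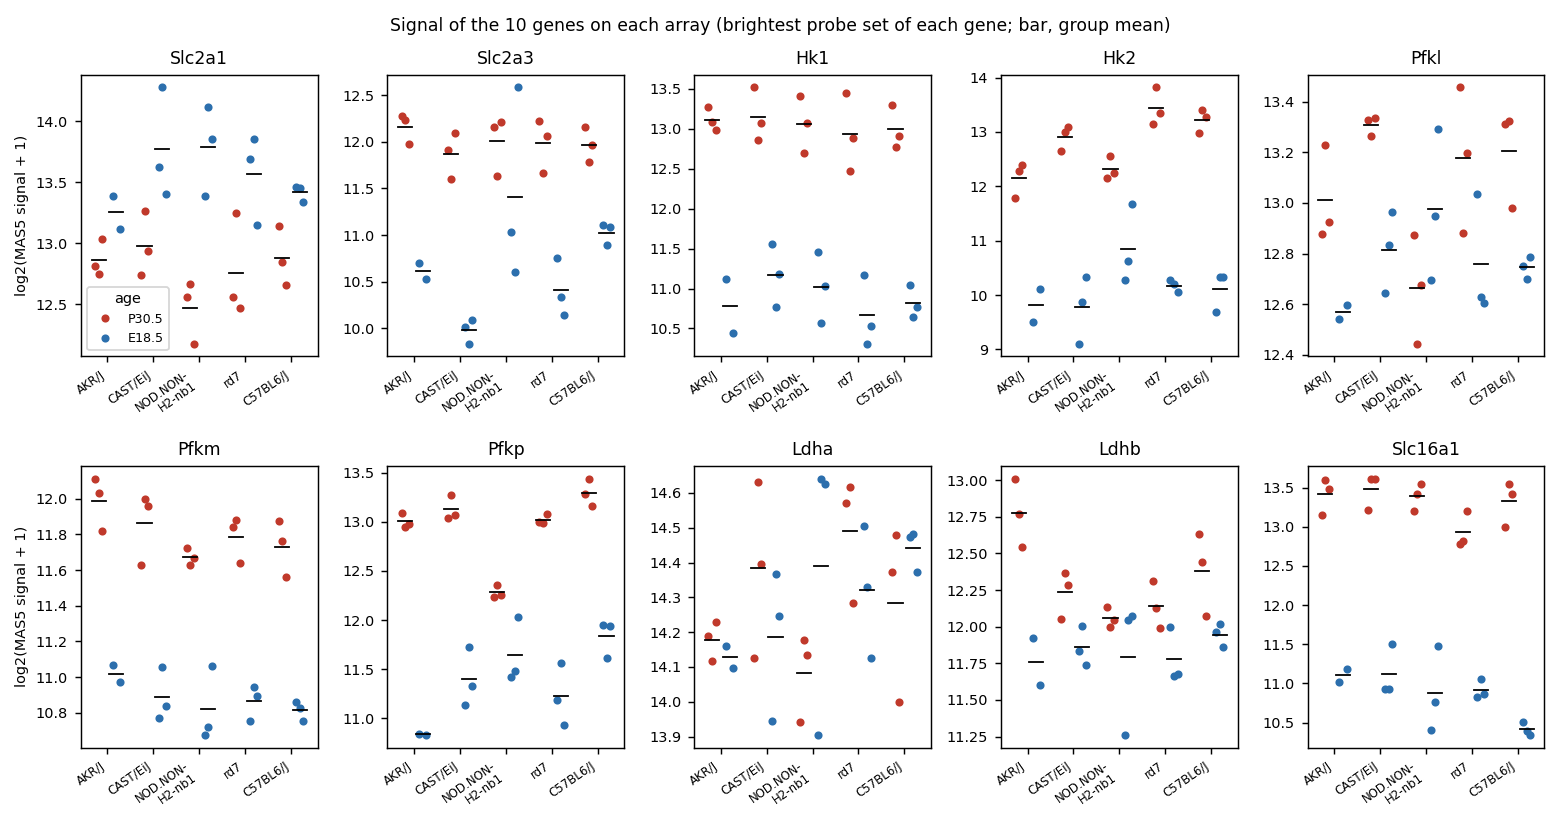
The log2 MAS5 signal of each of the 10 genes in every array, by strain, with P30.5 left of E18.5. Points are arrays (pools of 10 retinas) and bars are group means. Hk1, Hk2, Pfkm, Pfkp and Slc16a1 have no overlap between the ages, Slc2a1 lies lower at P30.5 in most strains, and Ldha lies at 13.9 to 14.6 in both.

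Slc2a1 (chr4:119108745-119137330 in GRCm38.p6), the transporter that carries glucose across the blood-retina barrier and into photoreceptors, was the only member that fell. In NOD.NON-H2-nb1 retinas its log2 signal was 12.56, 12.66 and 12.18 at P30.5, against 13.38, 14.12 and 13.86 at E18.5, and the arrays of the ages did not overlap. The log2 fold change was -1.32 ± 0.26 (SE, adjusted p = 0.000523), a 2.49-fold lower signal. In CAST/EiJ it was 12.74, 13.26 and 12.94 at P30.5 and 13.63, 14.28 and 13.41 at E18.5 (-0.79 ± 0.26, adjusted p = 0.0278). These arrays also lay apart. In rd7 it was 12.56, 13.25 and 12.47 at P30.5 and 13.69, 13.86 and 13.15 at E18.5 (-0.80 ± 0.26, adjusted p = 0.0251), where 1 P30.5 array lay within the E18.5 range. The CAST/EiJ call was lost without P30.5 replicate 1 or 3 or E18.5 replicate 2 of that strain (adjusted p 0.0701 to 0.174). The rd7 call was lost without P30.5 replicate 1 or 3 or E18.5 replicate 1 or 2 (0.0739 to 0.115), and without the muscle-rich arrays (-0.93, adjusted p = 0.0961). Neither call passed in a fit of the 2 groups alone (adjusted p = 0.149 in CAST/EiJ and 0.182 in rd7).

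The change of Slc2a1 did not pass in AKR/J (-0.39 ± 0.29, adjusted p = 0.399), where the signal was 12.82, 12.75 and 13.03 at P30.5 and 13.39 and 13.12 at E18.5. It did not pass in C57BL6/J either (-0.53 ± 0.26, adjusted p = 0.148), where it was 13.14, 12.85 and 12.66 at P30.5 and 13.46, 13.45 and 13.34 at E18.5. In both strains every P30.5 array was nevertheless below every E18.5 array. The other probe sets of the gene moved the same way and further. Probe set 1426600_at fell in all 5 strains, with changes of -1.80 (NOD.NON-H2-nb1) to -0.82 (AKR/J, adjusted p = 0.0175), and 1426599_a_at fell in 4, with AKR/J at -0.53 (adjusted p = 0.152). All 3 probe sets thus had changes below 0 in every strain, by an amount that depended on the probe set.

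Slc2a3 (chr6:122727809-122802363), the high-affinity glucose transporter of neurons, went the other way. In AKR/J retinas its log2 signal was 12.27, 12.24 and 11.97 at P30.5, against 10.70 and 10.53 at E18.5 (log2 fold change 1.55 ± 0.37, adjusted p = 0.00329). In CAST/EiJ it was 11.91, 11.60 and 12.09 at P30.5 and 10.01, 9.84 and 10.09 at E18.5 (1.89 ± 0.33, adjusted p = 0.000135), the largest change of the 5 strains, at 3.70-fold. In rd7 it was 12.22, 11.67 and 12.07 at P30.5 and 10.75, 10.34 and 10.14 at E18.5 (1.57, adjusted p = 0.000927). In each of these strains the P30.5 arrays lay wholly above the E18.5 arrays. The rd7 call was lost without the muscle-rich arrays (1.23, adjusted p = 0.113) and as the mean over probe sets (0.97, adjusted p = 0.0982), and the AKR/J call with the muscle markers as a covariate (1.43, adjusted p = 0.149) and as that mean (1.21, adjusted p = 0.0685).

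In NOD.NON-H2-nb1 the Slc2a3 signal was 12.16, 11.63 and 12.22 at P30.5 and 11.04, 10.60 and 12.58 at E18.5, and the last of these arrays lay above all those of P30.5. The change there did not pass (0.60 ± 0.33, adjusted p = 0.214). Without that array it was 1.19 (adjusted p = 0.000731). In C57BL6/J the signal was 12.16, 11.79 and 11.96 at P30.5 and 11.10, 10.89 and 11.09 at E18.5 (0.94, adjusted p = 0.0378), with no overlap, but leaving out any 1 array raised the adjusted p to between 0.0525 and 0.116, and it was 0.0604 without the muscle-rich arrays, 0.123 with lens markers as a covariate and 0.196 as the mean over probe sets. The second bright probe set, 1455898_x_at, passed in the same 4 strains, with changes of 1.51 to 2.40, and gave 0.77 (adjusted p = 0.148) in NOD.NON-H2-nb1. The other 2 probe sets of Slc2a3 were dim, with mean log2 signals of 4.41 and 4.33, and passed in no strain.

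Hk1 (chr10:62268855-62379920), the hexokinase of most neurons, rose by nearly the same amount in each strain. Its log2 signals were 12.47 to 13.52 over the P30.5 arrays and 10.31 to 11.55 over the E18.5 arrays. The log2 fold changes were 2.33 in AKR/J, 1.98 in CAST/EiJ, 2.26 in rd7, 2.04 in NOD.NON-H2-nb1 and 2.18 in C57BL6/J, which is 3.95-fold to 5.03-fold, and the highest adjusted p of the 5 was 3.04e-05. The other Hk1 probe set, 1420901_a_at, rose by 2.58 to 3.34, and by 2.58 to 3.09 in the RMA values, a second summary that the study deposited for part of the probe sets.

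Hk2 (chr6:82725025-82774454) varied more between strains. In AKR/J retinas its log2 signal was 11.79, 12.28 and 12.39 at P30.5, against 9.51 and 10.11 at E18.5 (2.34 ± 0.37, 5.07-fold, adjusted p = 4.84e-05). In NOD.NON-H2-nb1 it was 12.16, 12.56 and 12.24 at P30.5 and 10.28, 10.62 and 11.67 at E18.5 (1.46 ± 0.33, 2.75-fold, adjusted p = 0.00171). The groups did not overlap in either strain, but the third NOD.NON-H2-nb1 array of E18.5 came close to the P30.5 arrays. Without that array the change in this strain was 1.87 (adjusted p = 0.000146), and with the muscle markers as a covariate the AKR/J change was 1.66 (adjusted p = 0.0641). The changes in the remaining strains were larger and lay close together. In CAST/EiJ the signal was 12.66, 13.003 and 13.08 at P30.5 and 9.11, 9.88 and 10.33 at E18.5 (3.14 ± 0.33, 8.83-fold, adjusted p = 1.71e-07). In rd7 it was 13.15, 13.82 and 13.36 at P30.5 and 10.27, 10.20 and 10.05 at E18.5 (3.27 ± 0.33, 9.66-fold, adjusted p = 1.02e-07). In C57BL6/J it was 12.98, 13.41 and 13.27 at P30.5 and 9.68, 10.33 and 10.33 at E18.5 (3.11 ± 0.33, 8.62-fold, adjusted p = 1.99e-07). Whether the change itself differed between strains was tested as well, and that is given with the strain comparisons.

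**Figure D2:**
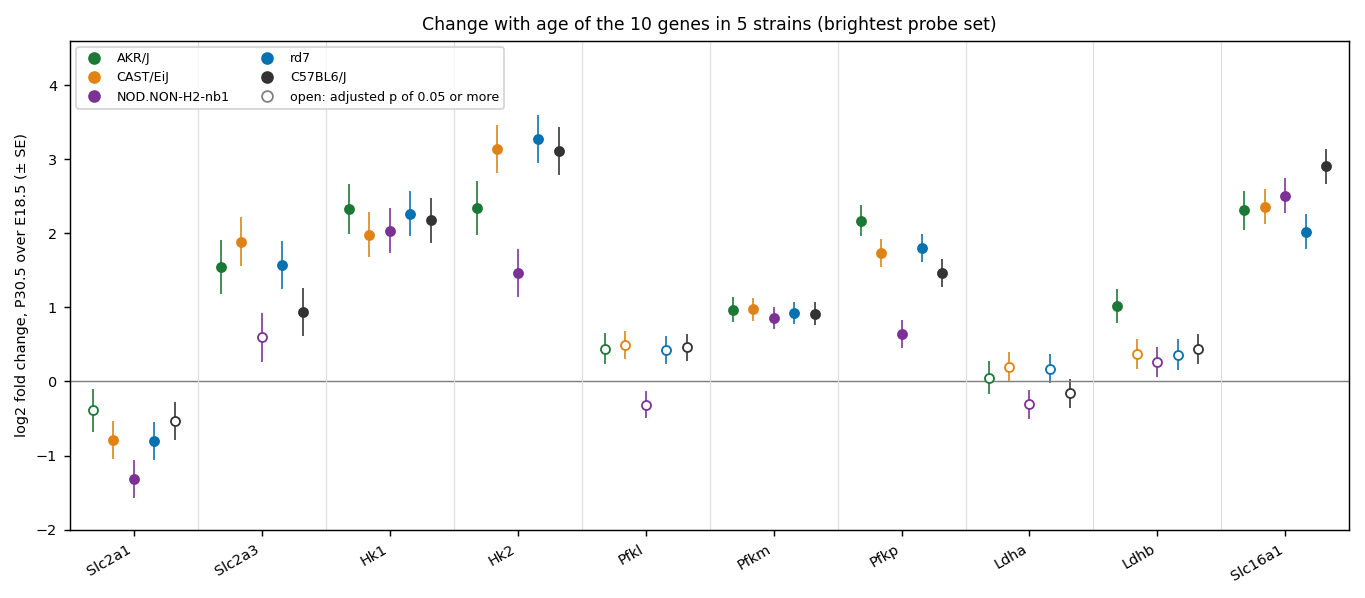
The log2 fold change of P30.5 over E18.5 for each gene and strain, by the probe set with the highest mean signal. Bars are the SE of the model, and filled points passed an adjusted p of 0.05. Hk1 and Pfkm changed by similar amounts in the 5 strains, and Hk2, Pfkp and Slc2a3 changed least in NOD.NON-H2-nb1.

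The 3 phosphofructokinases, named for liver, muscle and platelets but all expressed in the retina, differed from one another. Pfkp (chr13:6579874-6649060) rose by more than the other forms in every strain but NOD.NON-H2-nb1, by the brightest probe sets. In AKR/J its log2 signal was 13.10, 12.95 and 12.98 at P30.5, against 10.84 and 10.83 at E18.5 (2.17 ± 0.21, 4.50-fold, adjusted p = 9.18e-08). In CAST/EiJ it was 13.04, 13.28 and 13.07 at P30.5 and 11.14, 11.73 and 11.32 at E18.5 (1.73, 3.32-fold). In rd7 it was 13, 12.99 and 13.08 at P30.5 and 11.19, 11.57 and 10.93 at E18.5 (1.795, 3.47-fold). None of these groups overlapped. In NOD.NON-H2-nb1 the signal was 12.23, 12.36 and 12.26 at P30.5 and 11.42, 11.48 and 12.03 at E18.5 (0.64 ± 0.19, 1.56-fold, adjusted p = 0.0148). Here the P30.5 arrays were the lowest of the 5 strains and lay just above the E18.5 arrays. The NOD.NON-H2-nb1 call did not hold with the muscle markers as a covariate (adjusted p = 0.0828) or without the muscle-rich arrays (0.53, adjusted p = 0.0635), nor without P30.5 replicate 2 or E18.5 replicate 1 or 2 (adjusted p 0.0525 to 0.0794), while without replicate 3 of E18.5 the change was 0.84 (adjusted p = 0.00299). In C57BL6/J Pfkp had 13.29, 13.44 and 13.17 at P30.5 and 11.95, 11.62 and 11.94 at E18.5 (1.46, 2.75-fold). A second Pfkp probe set, 1430634_a_at, rose in all 5 strains, by 1.55 in NOD.NON-H2-nb1 to 2.61 in AKR/J, and the third, 1437759_at, passed in none (0.01 to 1.01).

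**Figure D3:**
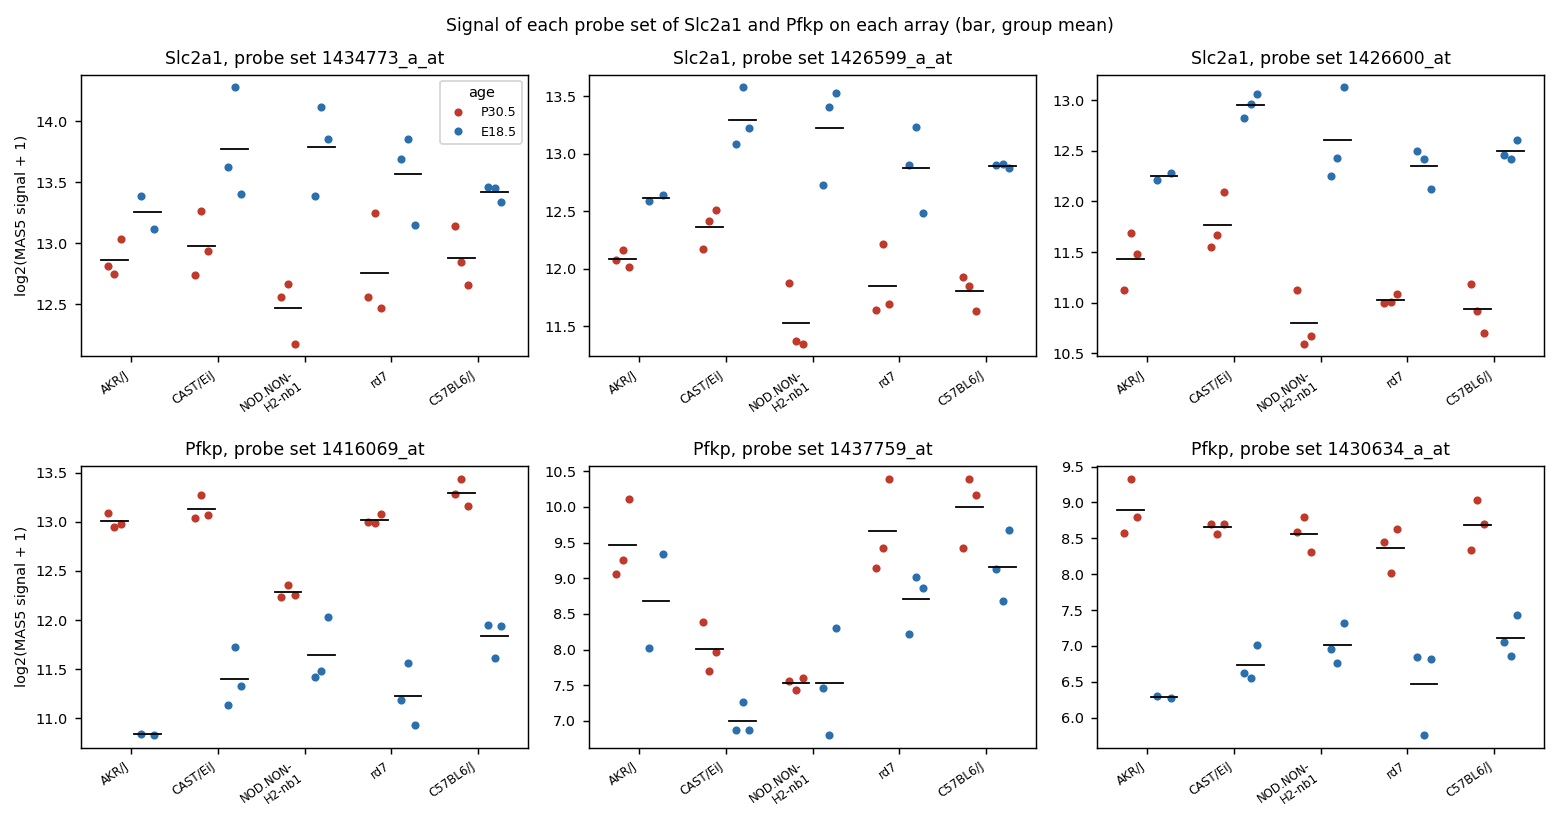
The log2 MAS5 signal of the 3 probe sets of Slc2a1 (top) and the 3 of Pfkp (bottom) in every array, by strain, with P30.5 left of E18.5. Points are arrays and bars are group means. Each Slc2a1 probe set has a lower mean at P30.5 in every strain, whereas the Pfkp probe set 1437759_at, unlike the other 2, has nearly the same mean at both ages in NOD.NON-H2-nb1 and there, as in CAST/EiJ, lies below its C57BL6/J mean of the same age.

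Pfkm (chr15:98092589-98132447) rose in every strain by a similar amount, at 11.56 to 12.11 over the P30.5 arrays and 10.68 to 11.07 over the E18.5 arrays. Its log2 fold changes were 0.97 in AKR/J and CAST/EiJ, 0.92 in rd7 and C57BL6/J and 0.86 in NOD.NON-H2-nb1, with a highest adjusted p of 0.000167. Pfkl (chr10:77986947-78009807), the liver form, passed in no strain by limma at its brightest probe set, with changes of 0.44 in AKR/J, 0.50 in CAST/EiJ (adjusted p = 0.0562), 0.42 in rd7, -0.31 in NOD.NON-H2-nb1 and 0.46 in C57BL6/J. Its dimmer probe sets passed in single strains. 1453541_at rose in CAST/EiJ (1.63, adjusted p = 3.38e-05) and rd7 (0.87, adjusted p = 0.0128), and 1450269_a_at in CAST/EiJ (0.59, adjusted p = 0.0487).

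Ldha (chr7:46842274-46855627) encodes the subunit of lactate dehydrogenase that favours making lactate, and its signal hardly differed between the ages. It was 13.94 to 14.63 over the P30.5 arrays and 13.91 to 14.64 over the E18.5 arrays, so the ranges coincided. The log2 changes were 0.05 in AKR/J, 0.20 in CAST/EiJ, 0.17 in rd7, -0.31 in NOD.NON-H2-nb1 and -0.16 in C57BL6/J, and the lowest adjusted p was 0.301. A p above the threshold does not show that the levels were equal. Ldhb (chr6:142490249-142507957) encodes the subunit that favours the use of lactate. In AKR/J its log2 signal was 13.01, 12.77 and 12.55 at P30.5, against 11.93 and 11.60 at E18.5 (1.01 ± 0.23, adjusted p = 0.00215), and the other 3 probe sets rose there too, by 0.86 to 1.07. It did not pass in the other strains, where the changes were 0.27 to 0.43, although 1416183_a_at passed in CAST/EiJ (0.51, adjusted p = 0.0472). The AKR/J change was 0.59 (adjusted p = 0.365) with the muscle markers as a covariate and 0.85 (adjusted p = 0.0515) without AKR/J replicate 2 of E18.5.

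Slc16a1 (chr3:104638664-104658462), monocarboxylate transporter 1, through which lactate and pyruvate cross membranes with a proton, rose strongly in every strain. In AKR/J its log2 signal was 13.15, 13.60 and 13.49 at P30.5, against 11.02 and 11.18 at E18.5 (2.31, 4.96-fold). In CAST/EiJ it was 13.22, 13.61 and 13.60 at P30.5 and 10.93, 10.93 and 11.50 at E18.5 (2.36, 5.12-fold). In rd7 it was 12.78, 12.82 and 13.21 at P30.5 and 10.82, 11.05 and 10.86 at E18.5 (2.02, 4.07-fold). These groups lay more than a log2 unit apart in each strain. In NOD.NON-H2-nb1 the signal was 13.20, 13.42 and 13.54 at P30.5 and 10.40, 10.76 and 11.48 at E18.5 (2.51, 5.68-fold). In C57BL6/J it was 13.002, 13.55 and 13.42 at P30.5 and 10.51, 10.39 and 10.34 at E18.5 (2.91 ± 0.24, 7.50-fold, adjusted p = 4.21e-09). The change in C57BL6/J was the largest by this probe set, and its E18.5 arrays were among the lowest. The highest adjusted p of the 5 strains was 8.93e-07. A dim second probe set, 1446274_at, rose in all of them, by 3.20 to 5.17 in the MAS5 signals and by 0.73 to 1.13 in the RMA values.

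Against C57BL6/J, few members differed. At E18.5 the members that passed numbered 1 of 10 in AKR/J (6.55% of all probe sets passed), 2 in CAST/EiJ (14.1%), 0 in rd7 (1.5%) and 0 in NOD.NON-H2-nb1 (2.14%). The counts of P30.5 were 0 in AKR/J (2.42%), 0 in CAST/EiJ (12.1%), 0 in rd7 (0.322%) and 1 in NOD.NON-H2-nb1 (2.03%). By limma's unadjusted p under 0.05 the counts in the same order were 2, 3, 2 and 1 at E18.5 and 1, 0, 0 and 3 at P30.5. The RMA values hold 6 of the genes, and for Pfkl and Pfkp they use other probe sets than the ones used here. At E18.5 Pfkl passed in them as lower in rd7 (-0.87, adjusted p = 0.00921), CAST/EiJ (-0.74, 0.00643) and AKR/J (-0.73, 0.0225). The MAS5 signals of that probe set, 1453541_at, did not pass in these comparisons (adjusted p 0.156 to 0.299). In CAST/EiJ at P30.5 the RMA values gave 1 (Pfkp).

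Pfkp passed in more than 1 strain, but in none of them by all of its probe sets. At P30.5 its log2 signal was 12.23, 12.36 and 12.26 in NOD.NON-H2-nb1 retinas, against 13.29, 13.44 and 13.17 in C57BL6/J retinas, with a clear gap between them. The log2 fold change was -1.02 ± 0.19 (2.02-fold lower, adjusted p = 0.00298), and it passed with each array left out in turn (adjusted p 0.00821 to 0.0241). In a fit of these 2 groups alone it did not pass (adjusted p = 0.131). The probe sets of the gene differed here. Signals of 1437759_at were 7.56, 7.44 and 7.60 in NOD.NON-H2-nb1 and 9.42, 10.39 and 10.17 in C57BL6/J (-2.46, adjusted p = 0.00128), whereas the change of 1430634_a_at was -0.13 (adjusted p = 0.963). In CAST/EiJ, 1437759_at was lower at both ages, at 8.39, 7.69 and 7.96 at P30.5 (-1.98, adjusted p = 0.00245) and 6.87, 7.27 and 6.87 at E18.5 (-2.16 ± 0.42, adjusted p = 0.000925), and in NOD.NON-H2-nb1 also at E18.5 (-1.64, adjusted p = 0.0419). The brightest Pfkp probe set did not pass in CAST/EiJ at E18.5 (-0.44, adjusted p = 0.139) or at P30.5 (-0.17, adjusted p = 0.671). Why the probe sets of the gene differed was not tested.

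At E18.5 Pfkp was lower in AKR/J retinas, at 10.84 and 10.83, against 11.95, 11.62 and 11.94 in C57BL6/J (-1.002 ± 0.21, adjusted p = 0.00504). Both AKR/J arrays of this age are among the muscle-rich ones, so the comparison cannot be made without them, and the part of the muscle RNA in it was not tested beyond a covariate. With the muscle markers as a covariate the difference was -0.91 (adjusted p = 0.30), and it was also lost without either AKR/J array (adjusted p = 0.0503 and 0.0534). By 1430634_a_at it was -0.83 (adjusted p = 0.132).

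In CAST/EiJ at E18.5 the 2 members that passed against C57BL6/J were Slc2a3 and Slc16a1. The neuronal transporter Slc2a3 had 10.01, 9.84 and 10.09 in CAST/EiJ, against 11.10, 10.89 and 11.09 in C57BL6/J (-1.05 ± 0.33, 2.07-fold lower, adjusted p = 0.0355). The lactate transporter Slc16a1 had 10.93, 10.93 and 11.50 in CAST/EiJ, against 10.51, 10.39 and 10.34 in C57BL6/J (0.71 ± 0.24, 1.63-fold higher, adjusted p = 0.0489). The arrays did not overlap for either gene. Both calls were lost when any 1 of the 6 arrays was left out (adjusted p 0.063 to 0.0999 for Slc2a3 and 0.0514 to 0.227 for Slc16a1), and without the muscle-rich arrays (0.106 and 0.061). They were also lost with lens markers as a covariate (0.123 and 0.167), whose mean log2 signal was 7.83 to 13.4 in the CAST/EiJ arrays and 3.71 to 8.40 in the C57BL6/J arrays. The second bright Slc2a3 probe set gave -0.90 (adjusted p = 0.122), and the mean over probe sets of Slc2a3 was -0.81 (adjusted p = 0.266). Its RMA values gave -0.87 (adjusted p = 0.0254). For Slc16a1 the RMA values, which use its dim probe set, gave 0.04 (adjusted p = 0.931), and the mean over probe sets was -0.15 (adjusted p = 0.882). With the dates of the titles as a replicate block this difference in Slc2a3 was -0.86 (adjusted p = 0.0955). At P30.5 neither gene passed, but Slc2a1 was higher in CAST/EiJ by 1 of its probe sets, 1426600_at (0.83 ± 0.22, adjusted p = 0.0128).

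**Figure D4:**
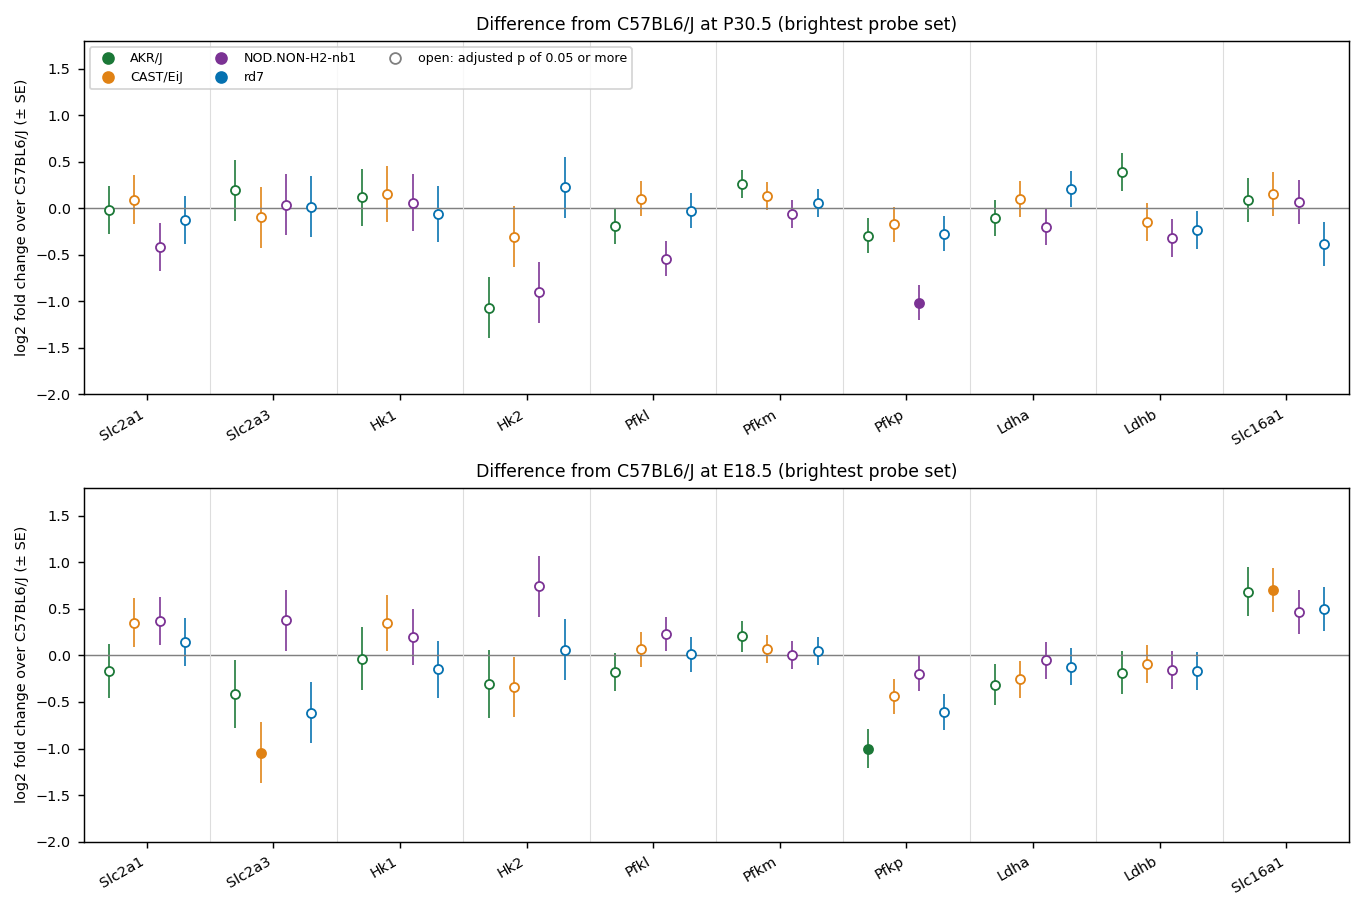
The log2 difference of each strain from C57BL6/J at P30.5 and at E18.5 for the 10 genes, by the probe set with the highest mean signal. Bars are the SE of the model, and filled points passed an adjusted p of 0.05. The filled points are those of Pfkp (NOD.NON-H2-nb1, P30.5, and AKR/J, E18.5) and of Slc2a3 and Slc16a1 (CAST/EiJ, E18.5).

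Hk2 had the lowest P30.5 signals in AKR/J and NOD.NON-H2-nb1, as listed with its change with age. Every array of these strains lay below every C57BL6/J array at P30.5, but the differences of -1.07 ± 0.33 (adjusted p = 0.103) and -0.90 ± 0.33 (adjusted p = 0.232) did not pass. For AKR/J the call depended on the fit. It passed with these dates as a replicate block (adjusted p = 0.0203), with the date as a random block (0.0334) and with limma's trend and robust prior (0.0405), while with lens markers as a covariate the difference was -0.74 (adjusted p = 0.415). Lens markers had a mean log2 signal of 4.61 to 9.52 in the AKR/J arrays and 11.1 to 13.3 in the C57BL6/J arrays of P30.5. Pfkl was also below C57BL6/J in every NOD.NON-H2-nb1 array of P30.5, at 12.87, 12.45 and 12.68 against 13.31, 13.32 and 12.98 (-0.54, adjusted p = 0.196).

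The test of the difference itself, between a strain's change with age and that of C57BL6/J, passed for 0 members in AKR/J (0.424% of all probe sets passed), 0 in CAST/EiJ (1.07%), 0 in rd7 (0.293%) and 0 in NOD.NON-H2-nb1 (0.0511%). By limma's unadjusted p under 0.05 these counts were 1, 0, 1 and 4, and the RMA values gave 1 in CAST/EiJ (Pfkl). The smaller rise of Hk2 in NOD.NON-H2-nb1 was a difference of -1.65 ± 0.46 (adjusted p = 0.349), and -1.24 (adjusted p = 0.609) without replicate 3 of E18.5. That of Pfkp in NOD.NON-H2-nb1 was -0.82 (adjusted p = 0.514), and the larger rise of Pfkp in AKR/J was 0.71 (adjusted p = 0.331). For Slc16a1 in rd7 it was -0.88 (adjusted p = 0.394). None of these differences in the size of a change passed the threshold.

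Further genes of the pathway were read from 4 lists. Of 16 measured glycolysis enzymes other than the members, 3 rose and 3 fell in AKR/J, 6 and 2 in CAST/EiJ, 4 and 1 in rd7, 2 and 1 in NOD.NON-H2-nb1, and 4 and 1 in C57BL6/J, beside the 23.1% to 26.6% of all probe sets that passed in a strain. Both directions together were 3 of 16 in NOD.NON-H2-nb1, below that share, and 5 to 8 of 16 elsewhere. Aldoc, the aldolase of nervous tissue, and Eno2, the neuronal enolase, rose in all 5 strains, by 3.58 to 4.46 and 2.43 to 3.55 on the log2 scale. Hkdc1, a hexokinase-like gene, fell in all 5, with changes of -3.40 to -1.20. The common forms Tpi1 and Pgk1 passed in none, like Ldha. Aldoa, by contrast, rose in 4 strains, with changes of 0.55 to 1.225 over the 5, and Pgam1 and Pkm rose in CAST/EiJ. The median change of the list was 0.60 in AKR/J, 0.47 in CAST/EiJ, 0.19 in rd7, 0.08 in NOD.NON-H2-nb1 and 0.17 in C57BL6/J, beside the medians of 0.01 to 0.07 over all genes. Pgam2 and Eno3, the forms of muscle, moved with the muscle markers at E18.5. Pgam2, with a low mean log2 signal of 5.98, was higher than in C57BL6/J by 5.64 in AKR/J, 4.97 in rd7 and 4.70 in CAST/EiJ. Eno3 was higher by 2.38 in AKR/J and 1.77 in rd7.

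Of 15 measured regulators of glycolysis, 4 rose and 2 fell in AKR/J, 4 and 4 in CAST/EiJ, rd7 and NOD.NON-H2-nb1, and 4 and 5 in C57BL6/J, with list medians of -0.25 to 0.05. Both directions together were 6 to 9 of 15, beside the 23.1% to 26.6% of all probe sets that passed in a strain. The 4 that rose were the same genes in each strain. They were Pfkfb2, which makes the activator of phosphofructokinase (2.42 to 3.34), Tigar, which removes that activator (1.63 to 2.13), and the hypoxia-inducible factors Hif1a (0.51 to 0.64) and Epas1 (1.35 to 2.50). Myc, a transcription factor of growing cells, fell in all 5 strains, with changes of -5.44 to -2.05. Pdk1, which holds pyruvate out of the mitochondria, fell in 4 strains. Txnip, an inhibitor of glucose uptake, also fell in 4 and changed by -1.12 in NOD.NON-H2-nb1. In the third NOD.NON-H2-nb1 array of E18.5 its log2 signal was 7.88, against 9.58 and 9.31 in the other arrays of that group, and that of Pdk1 was 11.55, against 10.80 and 10.61. Pfkfb3 had 10.44 in this array, against 9.36 and 9.12. These 3 genes were picked after their values were seen, and others did not stand apart, such as Pgk1 at 14.56 against 14.63 in replicate 2 and Tpi1 at 14.39 against 14.43.

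Of 15 other glucose and lactate transporters and their partners, 4 rose and 1 fell in each strain but rd7, where 2 rose and 0 fell, and C57BL6/J, where 5 rose and 1 fell. The 5 or 6 of 15 that passed lie near or above the share of all probe sets, and the 2 of 15 in rd7 below it (26.6%). The list had medians of 0.06 to 0.23. Nxnl1 and Nxnl2, which encode the rod-derived cone viability factors, rose in all 5 strains, by 3.75 to 6.89 and 2.69 to 7.23. Bsg, which encodes basigin, the partner that brings Slc16a1 to the membrane, rose in 3 strains. Nxnl1 was lower than in C57BL6/J at P30.5 in AKR/J (-2.43, adjusted p = 0.00178) and CAST/EiJ (-1.75, adjusted p = 0.00803). Nxnl2 in CAST/EiJ was lower at E18.5 (-3.54) and higher at P30.5 (by 1), with an interaction of 4.54 ± 0.25 (adjusted p = 1.01e-09). At E18.5 Nxnl2 also passed as lower in AKR/J. Of 7 genes that take pyruvate into mitochondria and oxidise it, 1 rose in AKR/J, 4 in CAST/EiJ, 3 in rd7, 4 in NOD.NON-H2-nb1 and 2 in C57BL6/J, with list medians of 0.37 to 0.70. The 1 of 7 in AKR/J lies below the share of all probe sets there (23.1%), and the 2 of 7 in C57BL6/J near it (26.3%). Dlat, a subunit of pyruvate dehydrogenase, rose in all 5 (0.92 to 1.18).

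**Figure D5:**
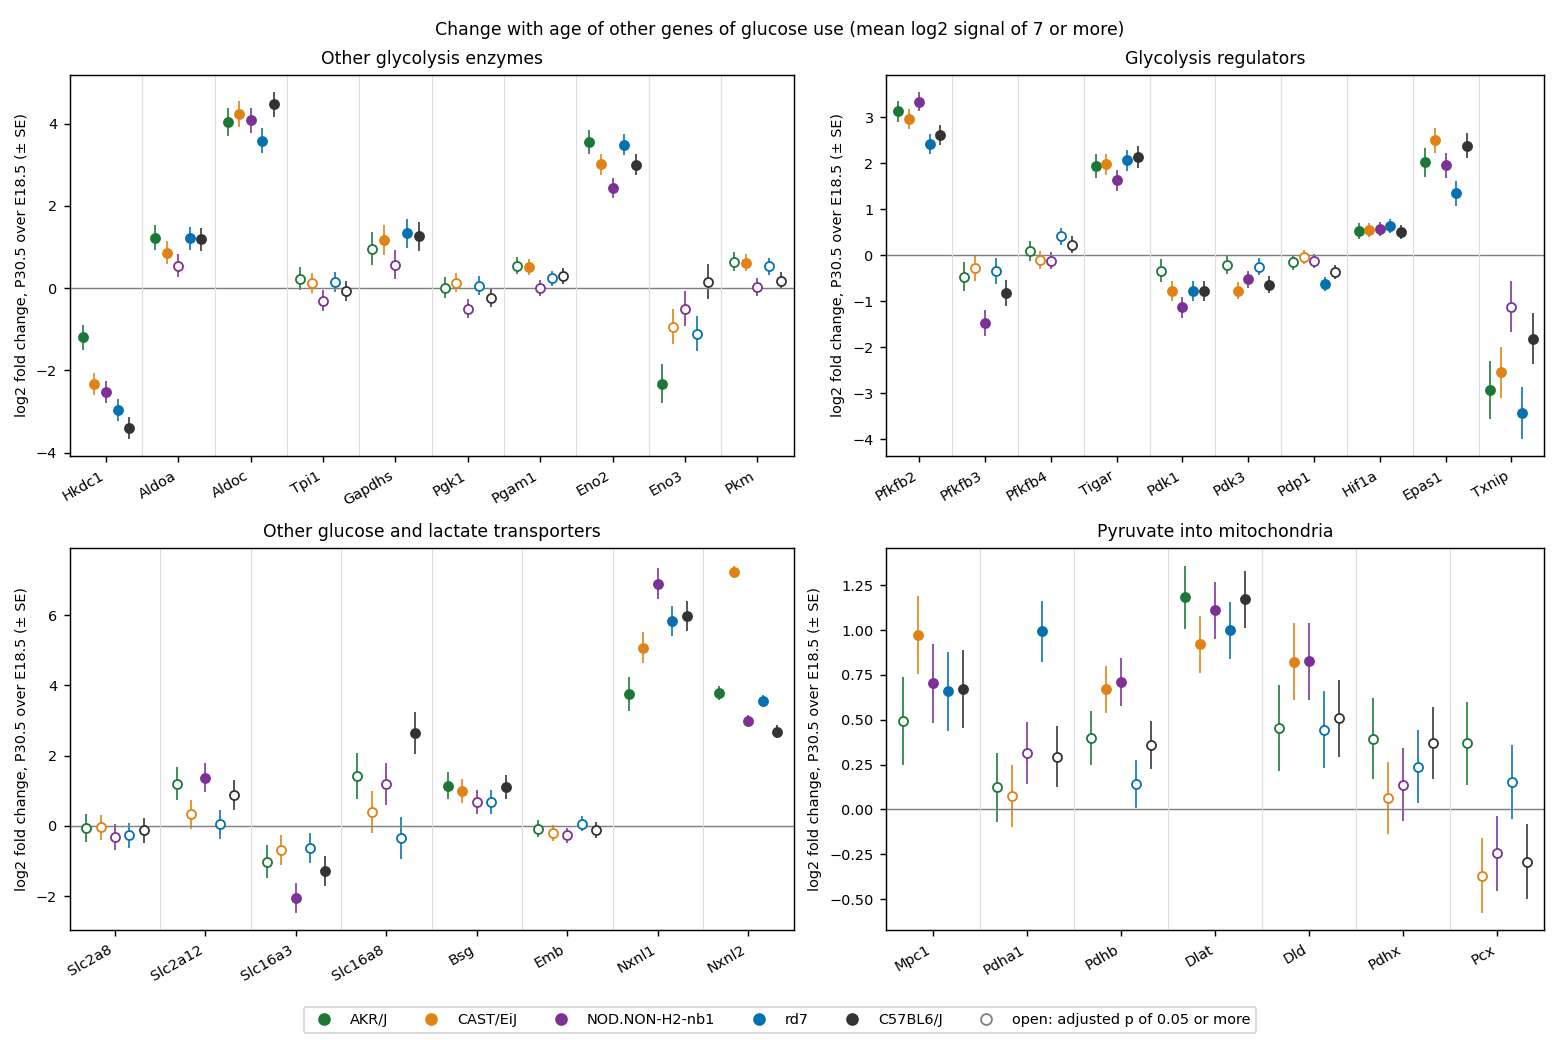
The log2 fold change of P30.5 over E18.5 for the genes of the 4 further pathway lists with a mean log2 signal of 7 or more, 1 point per strain. Bars are the SE of the model, and filled points passed an adjusted p of 0.05. Aldoc, Eno2, Pfkfb2, Nxnl1 and Nxnl2 lie above 2 in every strain, and Hkdc1 lies below 0 in every strain.

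For each member, the genes whose signals ran most like its own were taken over the 29 arrays, among 11045 genes with a mean log2 signal of 7 or more, by Pearson's r. The arrays share strains, ages and dates, so the correlations are a description. The 3 most like Hk2 were Cacna2d3 (r = 0.952), Arr3 (0.948) and Opn1mw (0.948), of which Arr3 and Opn1mw encode the cone arrestin and a cone opsin. Those most like Slc16a1 were Slc24a1 (0.982), the sodium, calcium and potassium exchanger of rods, Cacnb2 (0.98) and Ppargc1a (0.979). Hk1 ran most like Impdh1 (0.984), Tef (0.981) and Rap1gap2 (0.981), and Pfkp like Napb (0.951), Kcnc1 (0.945) and Tspyl4 (0.939). Slc2a3 was most like Ppm1k (0.926), Mphosph9 (0.923) and Rgs11 (0.918), and Slc2a1 most like Kctd15 (0.909), Basp1 (0.902) and Edc3 (0.899). The 3 genes most like Ldha were Pgk1 (0.864), Tpi1 (0.833) and Pebp1 (0.818), of which the first and second are themselves glycolysis enzymes.

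The change with age ran beside a change in the cells of the tissue. Rod markers were higher and progenitor markers lower at P30.5 in all strains, as given in the opening, and Muller glia markers had a mean log2 signal of 10.7 to 11.1 at P30.5 and 8.86 to 9.99 at E18.5. Pigment epithelium markers had 10.1 to 11.9 at P30.5 and 7.38 to 10.1 at E18.5, and lens markers, which varied widely, 4.61 to 14.9 at P30.5 and 3.71 to 13.4 at E18.5. The part of these shifts in the rise of Hk1, Hk2, Pfkm, Pfkp and Slc16a1 was not tested.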

How the data were processed

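Total RNA from pools of 10 retinas was hybridized by the authors, 1 array per pool. The deposited intensity values are MAS5 signals of 45101 probe sets, scaled so that the mean after trimming 2% at each end is the same on every array. The array medians were 91.6 to 135. The deposited log2 values are RMA values of 25407 probe sets, for which the rule of choice is not given in the sources used here. They hold 8 of the 24 member probe sets and lack the brightest ones, so MAS5 signals were used and RMA was an alternative.

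Control probe sets (64) were left out. Of the rest, 34945 had 1 gene symbol in the platform annotation, 932 had several and 9160 were not listed. The log2 of MAS5 signal plus 1 entered a linear model (limma 3.58.1, R 4.3.3) that had a mean for each of 10 groups and 19 residual degrees of freedom, in 17 contrasts (5 of age, 8 of strain, 4 interactions). The Benjamini-Hochberg adjustment of limma's p-values ran over all probe sets of a contrast. The fit was tested on simulated data. The number of arrays limits the precision. Replicates correlated at 0.902 to 0.947 over all probe sets.

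Members are named by rule, each by its brightest probe set, with at most 4 genes per pathway list that passed in all strains or in a strain comparison, and the 3 genes most like a member. Bsg, Pdk1, Txnip, Pfkfb3, Tpi1, Pgk1, Aldoa, Pgam1 and Pkm were named after their values were seen. The members and lists were chosen with earlier results of these data known. Some genes of the lists are not reported here. The title of each array carries a date that arrays of different groups share, and what it dates is not stated. Arrays that share a date deviated from their group means together only weakly (mean correlation 0.05 over 120 pairs, against -0.03 over 258 other pairs). The alternatives were RMA values, quantile normalization, a pseudocount of 16, no dim probe sets (highest group mean under 7), the date as a replicate or random block, a trend and robust prior, the compared groups alone, muscle markers as a covariate, the mean over a gene's probe sets, a stricter threshold and each array left out. Lens markers as a covariate and the removal of the 6 muscle-rich arrays (mean log2 of 9 or more) were chosen after seeing the data.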

Additional observations from a re-analysis of the deposited data

How the results depend on the processing

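The number of members that changed with age was within 1.5 times its first value under most alternatives. In AKR/J it was 4 from RMA values, which hold 6 of the genes, 4 with muscle markers as a covariate and 4 at an adjusted p under 0.001 with a 2-fold change. In NOD.NON-H2-nb1 it was 3 from RMA values and 3 at the stricter threshold. With single arrays left out it was 6 to 7 in AKR/J, 6 to 7 in CAST/EiJ, 6 to 8 in rd7, 5 to 7 in NOD.NON-H2-nb1 and 5 in C57BL6/J.

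Against C57BL6/J at E18.5, AKR/J had 0 members with muscle markers as a covariate, with the mean over probe sets, at the stricter threshold and with the groups alone, and 0 to 1 with an array left out. In the RMA values Pfkp did not pass there (-0.87, adjusted p = 0.247), and Pfkl did (-0.73, adjusted p = 0.0225), both by other probe sets. CAST/EiJ had 1 with quantile normalization or the groups alone (Slc2a3), with muscle markers as a covariate (Slc16a1) or the mean over probe sets (Pfkp). It had 0 at the stricter threshold, with lens markers as a covariate or without the muscle-rich arrays. With an array left out it had 0 to 1, and a member that passed there was neither Slc2a3 nor Slc16a1. In rd7, RMA values gave 1. At P30.5, AKR/J had 1 (Hk2) with a random date block or a trend and robust prior, CAST/EiJ had 1 from RMA values and from the mean over probe sets, and NOD.NON-H2-nb1 had 0 at the stricter threshold and with the groups alone. The CAST/EiJ interaction had 1 from RMA values. Among single genes, the change of Pfkp with age in NOD.NON-H2-nb1 was -0.21 from RMA values, which use another probe set, and the Slc16a1 difference of CAST/EiJ at E18.5 was -0.15 as the mean over probe sets. The cause was not tested except where fewer genes, another probe set or fewer arrays entered.

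The titles carry a date in place of a replicate number, and what it dates is not stated. With this date as a replicate block, AKR/J had 1 member (Hk2) at P30.5, and of the 37 calls of members, 36 passed again and 1 did not (Slc2a3 in CAST/EiJ at E18.5). One C57BL6/J array of E18.5 is alone on its date, so this block fits it exactly. With each array left out in turn, 183 of 214 calls passed again. Of the probe sets of the members, the dim ones of Slc2a3 and Slc16a1 lie near background and carry the least precise changes.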
